A study of Mus musculus with 35 samples.

Results

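Slow-cycling and fast-cycling keratinocytes of the tongue basal layer were compared in 4 of the 35 libraries of the series, chosen by the tissue, layer and label class that the sample titles name. There were 2 libraries of label-retaining cells (LRC, called slow-cycling) and 2 of cells without retained label (nLRC, called fast-cycling). All came from C57BL/6J mice aged 2 months with the transgenes K5-tTA and pTRE H2B-GFP, given doxycycline for 10 days. These transgenes and the doxycycline are shared by both classes, which were separated by the label they kept. Whether their make-up of cell types also differs was not tested. The transgene reports on cells in which the keratin 5 promoter was active, and the brightness that separated the classes is not given in the sources used here. Other groups used for comparison were LRC and nLRC of the palate basal layer (2 libraries each, the same doxycycline) and of the tail skin basal layer (3 libraries each, doxycycline for 2 weeks), from mice of the same strain, age and transgenes.

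In this system a keratin 5 promoter drives a histone fused to GFP until doxycycline switches it off, and each later division dilutes the label, so retained label marks cells that divided little. The dorsal tongue is a stratified epithelium whose dividing cells lie in the basal layer on a basement membrane, and whose upper cells form filiform papillae with hard, hair-type keratins. Wnt signalling is known to maintain tongue progenitors, R-spondins amplify it through LGR receptors, and Lgr6 is known as a marker of tongue and taste progenitors.

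Reads assigned to genes numbered 13034075 and 12150179 in LRC libraries 1 and 2, against 11847897 and 11958656 in nLRC libraries 1 and 2. The labelled layer was checked against its markers. Krt5 and Krt14, the basal keratin pair, stood at 5397 and 6584 reads scaled to library size (CPM, counts per 1e6 reads) and at 3312 and 4068 CPM in LRC, against 4303 and 3987 CPM and 3649 and 3269 CPM in nLRC. Suprabasal keratins were abundant too, with Krt13 at 5280 and 8795 CPM in LRC and 5172 and 5609 CPM in nLRC. LRC library 2 stood apart from the other 3 in several measures. Its median gene had 23.9% of reads in introns, against 32.8% in LRC library 1 and 31.9 and 32.4% in nLRC, and its mitosis genes were lowest and suprabasal genes highest. The number 1 libraries of both classes held reads of Xist and of Y-linked genes together, whereas the number 2 libraries had 8099 and 12766 Xist reads and hardly any Y-linked reads. Kdm5d, a Y-linked gene, had 344 and 6 reads in LRC libraries 1 and 2 and 284 and 1 in nLRC libraries 1 and 2, so the libraries of a class did not come from the same animal or pool. Whether animals were pooled is not stated.

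With 2 libraries a class the power was low. An exact two-sided permutation test of 2 against 2 cannot go below p = 0.333, and in the fit across all genes (edgeR quasi-likelihood test, with the spread shared with the 4 palate libraries) a lone gene needed an unadjusted p of 3.35e-06. At a mean log2 CPM of at least 3 the median standard error (SE) of a log2 fold change was 0.249, which corresponds to a 95% interval of 1.47-fold to either side. Below that level it was 0.652, or 2.77-fold. A gene that did not pass is therefore not shown to be alike in both classes.

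Of 14923 genes tested, 1 passed an adjusted p under 0.05 (0.00670%), and it was higher in LRC. This gene was Col6a1, which encodes the alpha-1 chain of collagen VI, a microfibrillar collagen of the matrix next to basement membranes. No gene passed as lower. At an unadjusted p under 0.05 there were 696 genes (4.66%), of which 288 were higher in LRC (1.93%) and 408 lower (2.73%). Both LRC libraries lay above both nLRC libraries in 2720 genes (18.2%) and below them in 3019 (20.2%), and these shares are the background for the gene groups described here. By DESeq2 88 genes passed, 31 higher and 57 lower. In the fit of the tongue libraries alone 6 passed, namely Col6a1 and Igfbp3 as higher and Lgr6, Eya2, Nrp2 and Alcam as lower.

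**Figure D1:**
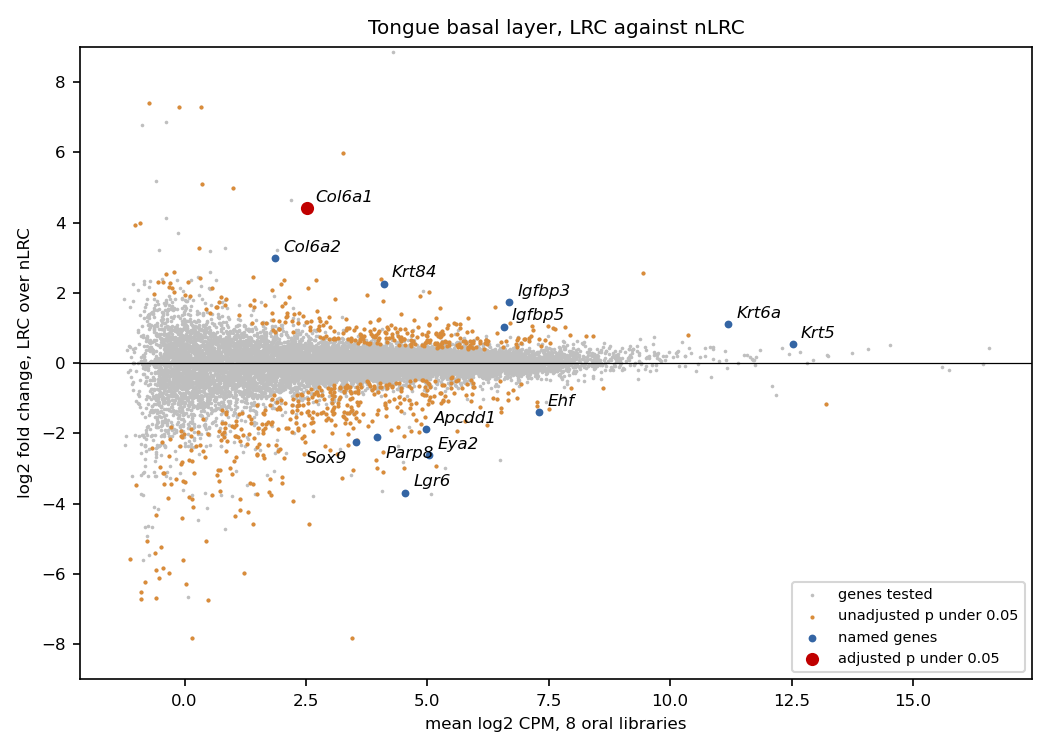
Log2 fold change of LRC over nLRC (vertical axis) against the mean log2 CPM over the 8 oral libraries (horizontal axis) for the 14923 genes tested, 1 point a gene. Col6a1, the gene past an adjusted p of 0.05, stands at 4.42, and Lgr6, with an adjusted p of 0.0786, at -3.69.

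Col6a1 (ENSMUSG00000001119.7, chromosome 10, 76708792 to 76726168, minus strand, mm10) had 229 and 245 reads in LRC, against 9 and 13 reads in nLRC. Scaled to depth, these were 16.5 and 20.3 CPM in LRC and 0.754 and 0.938 CPM in nLRC, so both LRC libraries were far above both nLRC libraries. The log2 fold change was 4.42 ± 0.42 (SE, adjusted p = 0.0280), 21.4-fold higher, with a 95% interval of 3.47 to 5.37 on the log2 scale. Values in TPM, which are scaled for transcript length and rest on exons, were 9.05 and 8.22 in LRC and 0.37 and 0.56 in nLRC. The call was lost whenever 1 of the 4 tongue libraries was left out (adjusted p 0.104 to 0.270), when the spread was shared over 14 basal layer libraries of tongue, palate and tail (0.102), and on log2(TPM + 0.1) (0.243). Over all alternatives its adjusted p lay between 1.75e-17 and 0.270, and its log2 fold change between 2.72 and 4.60. In sorted bulk RNA, fewer cells of a type and less RNA per cell cannot be told apart.

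Collagen VI is built from 3 different chains. Col6a2, the alpha-2 chain, had 102 and 74 reads in LRC and 7 and 15 in nLRC, again without overlap, but its log2 fold change of 2.99 ± 0.51 did not pass (adjusted p = 0.145). Col6a3, the usual alpha-3 chain, had 0 and 1 reads in LRC and 0 and 0 in nLRC, and was too low to test. Col6a6, another chain that can take its place, had 30 and 68 reads in LRC and 45 and 54 in nLRC and overlapped between the classes. Collagen VI is a typical product of fibroblasts, so fibroblast markers were read in the same libraries. Col3a1, Lum, Dpt and Mfap5 had 0 reads in each of the 4 libraries, and 8 of the 12 fibroblast markers had no more than 3 reads in any of them. The summed level of the 12 markers was 122 and 74.8 CPM in LRC, against 222 and 161 CPM in nLRC, nearly all of it from Dcn, Fbln1 and Thy1. The 4 that could be tested went both ways. Dcn, a small proteoglycan, had 76.2 and 36.0 CPM in LRC and 177 and 118 CPM in nLRC, and Fbln1, a matrix glycoprotein, 32.2 and 26.1 CPM in LRC and 36.9 and 35.4 CPM in nLRC. Thy1, a surface glycoprotein, had 12.9 and 12.2 CPM in LRC and 7.20 and 7.65 CPM in nLRC (0.76 ± 0.31), and Fbn1, a microfibril protein, 7 and 5 reads in LRC and 1 and 0 in nLRC.

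The promoter of Col6a1, 250 bases before to 50 after its start in RefSeq (GRCm38.p6, chr10:76725995-76726294, minus strand), is shown because this gene carried the only call. Capitals mark the core bound by TCF and LEF factors, CTTTGA, searched on both strands.
Col6a1: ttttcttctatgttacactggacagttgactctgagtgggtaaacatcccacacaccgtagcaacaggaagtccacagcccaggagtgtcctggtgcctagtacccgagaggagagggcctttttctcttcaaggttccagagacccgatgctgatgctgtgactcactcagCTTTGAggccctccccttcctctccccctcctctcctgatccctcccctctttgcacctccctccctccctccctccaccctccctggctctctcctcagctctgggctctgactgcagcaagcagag
The core occurred 1 time here and in 16.0% of 32851 promoters of the same length. Promoters of Lgr6, Axin2 and Tcf7, Wnt pathway genes described next, held no match in this window.

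The R-spondin receptor Lgr6 and most Wnt feedback genes had lower values in LRC, although none passed the test. Lgr6 (ENSMUSG00000042793.13, chromosome 1, 134983301 to 135105276, minus strand) encodes an R-spondin receptor. It had 22 and 22 reads in LRC, against 334 and 225 reads in nLRC, or 1.59 and 1.82 CPM against 28.0 and 16.2 CPM. The log2 fold change was -3.69 ± 0.44 with an adjusted p of 0.0786, the second smallest of all genes tested and shared with Parp8. Lgr4, a related receptor, had 170 and 127 CPM in LRC and 179 and 169 CPM in nLRC, and the classes overlapped. Lgr5, known as a stem cell marker in gut and hair follicle, was near absent, with 2 and 3 reads in LRC and 8 and 1 in nLRC.

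Feedback inhibitors and direct targets of the pathway numbered 9 in the list, and 7 could be tested. None rose or fell, 7 of 7 had a negative log2 fold change (median -0.87), and 6 had both LRC libraries below both nLRC libraries. That is 85.7% of the 7, against 20.2% of all genes tested. Apcdd1, a membrane-bound Wnt inhibitor, had 22.8 and 20.8 CPM in LRC and 100.5 and 61.5 CPM in nLRC (log2 fold change -1.89 ± 0.27, adjusted p = 0.0984). Axin2, a scaffold of the beta-catenin destruction complex and a widely used Wnt reporter, had 6.29 and 8.35 CPM in LRC and 18.7 and 13.8 CPM in nLRC (-1.15 ± 0.25, adjusted p = 0.251). Both genes lay lower in each LRC library. Notum, a secreted enzyme that inactivates Wnt ligands, had 2 and 3 reads in LRC and 48 and 24 in nLRC, a ratio of nLRC to LRC of 14.5 with a 95% interval, for counting error only, of 5.92 to 45.9. Without nLRC library 1 that ratio was 8.98. Tnfrsf19 (Troy), a receptor induced by Wnt, had 37.1 and 29.1 CPM in LRC and 71.6 and 49.8 CPM in nLRC (-0.87 ± 0.24). Rnf43, a ligase that removes Frizzled receptors, was closer, with 72.3 and 53.0 CPM in LRC and 77.4 and 74.6 CPM in nLRC.

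Most nuclear effectors of the pathway overlapped between the classes. Ctnnb1 (beta-catenin) had 436 and 497 CPM in LRC and 472 and 449 CPM in nLRC, and Lef1 83.2 and 61.0 CPM in LRC and 79.0 and 58.0 CPM in nLRC. Tcf7, a DNA-binding partner of beta-catenin and itself a Wnt target, lay lower in both LRC libraries, with 4.70 and 2.40 CPM in LRC and 9.63 and 8.80 CPM in nLRC (-1.37 ± 0.34, adjusted p = 0.407). Among 11 tested Frizzled and LRP receptors 9 had positive log2 fold changes (median 0.24). Of these 11, 6 lay above without overlap, where the share over all genes was 18.2%. Fzd7 was among the 6, at 60.8 and 73.1 CPM in LRC and 48.4 and 48.9 CPM in nLRC. The 16 ligand genes divided evenly, 8 positive and 8 negative. Wnt5a, a mainly non-canonical ligand, had 2.02 and 5.05 CPM in LRC and 11.6 and 7.50 CPM in nLRC, and Wnt6 2.82 and 3.06 CPM in LRC and 5.69 and 6.42 CPM in nLRC. Wnt11 had the opposite order, at 5.78 and 5.62 CPM in LRC and 3.60 and 3.53 CPM in nLRC. The antagonist Sfrp1 stood at 107 and 115 CPM in LRC and 66.7 and 82.7 CPM in nLRC. Over all 46 Wnt pathway genes tested of 62 listed, 0 passed, 23 were positive and 23 negative, and the median was 0.00027, against -0.0086 for all genes.

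**Figure D2:**
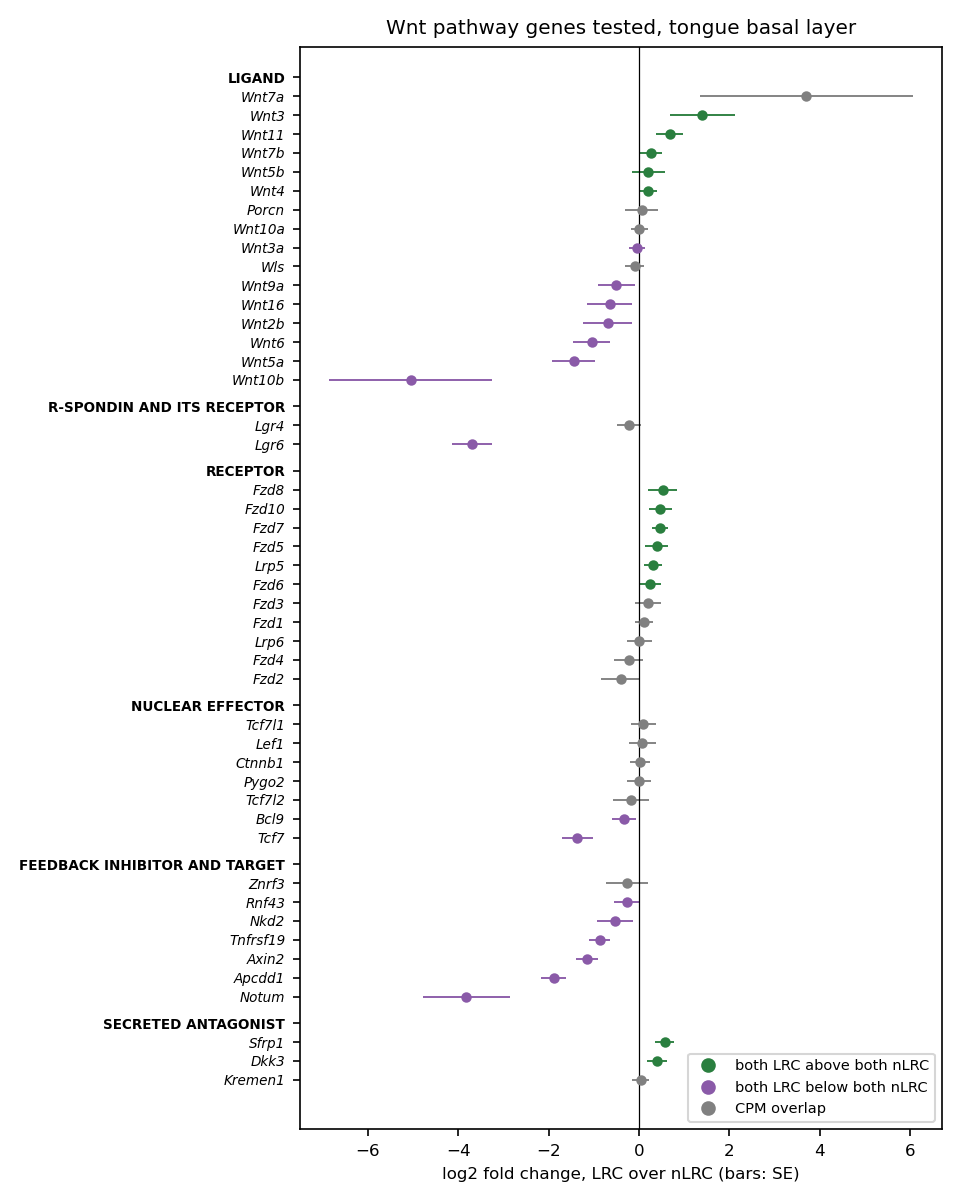
Log2 fold change of LRC over nLRC with its SE (bars) for the 46 Wnt pathway genes tested, grouped by role, coloured by whether the CPM of the 2 libraries a class overlap. The 7 feedback inhibitors and targets all lie below 0, with Apcdd1 at -1.89 and Axin2 at -1.15, while 9 of 11 receptors lie above 0, and no gene shown passed the test.

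Hard keratins of the filiform papilla were read at higher levels in LRC. Of 12 in the list, 4 had enough reads to be tested, and all 4 lay higher in both LRC libraries, without passing. The share of all genes lying above in this way was 18.2%. Krt84 had 36.9 and 75.4 CPM in LRC and 12.3 and 11.1 CPM in nLRC (log2 fold change 2.26 ± 0.37, adjusted p = 0.145). Krt36 had 10.3 and 26.5 CPM in LRC and 3.60 and 4.76 CPM in nLRC (2.13 ± 0.62). Krt32 and Krt35 had log2 fold changes of 1.31 ± 0.29 and 1.66 ± 0.59. LRC library 2 was the highest of the 4 libraries for each of these keratins. Hoxc13, a transcription factor known to activate hard keratins in hair, had 3.11 and 4.05 CPM in LRC and 2.43 and 2.16 CPM in nLRC.

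Among 11 suprabasal and stress keratins tested, 8 had positive values, and 0 passed. Krt76, a suprabasal keratin of oral epithelium, had 31.0 and 72.6 CPM in LRC and 4.61 and 12.8 CPM in nLRC (2.57 ± 0.69, adjusted p = 0.505). Krt6a and Krt6b, which are near-identical copies and may share reads, had log2 fold changes of 1.11 ± 0.37 and 1.58 ± 0.51. Krt17, which often pairs with them, was the other way round, at 35.3 and 40.2 CPM in LRC and 91.4 and 72.7 CPM in nLRC (-1.12 ± 0.34). Krt4 and Krt13, the main suprabasal pair of oral mucosa, overlapped between the classes, Krt4 with 1571 and 3641 CPM in LRC and 3198 and 3617 CPM in nLRC. The 35 tested genes of the oral suprabasal and cornification list had a median of 0.30, which became -0.17 without LRC library 2. Their summed level was 12791 and 21216 CPM in LRC and 13155 and 14445 CPM in nLRC. Beyond this, the part of that library in the keratin values was not tested.

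Basal layer genes had small fold changes. Of 22 tested keratin, integrin and basement membrane genes 0 passed and 13 lay above without overlap, with a median of 0.16. Over all genes tested 18.2% lay above without overlap, and the median was -0.0086. Krt15, a basal keratin linked to quiescent cells, had 2474 and 3049 CPM in LRC and 1711 and 1483 CPM in nLRC (0.79 ± 0.31). Cav1, a caveolar protein, had 121 and 110 CPM in LRC and 78.0 and 76.1 CPM in nLRC (0.59 ± 0.18). Hemidesmosomal Col17a1 had 2442 and 2497 CPM in LRC and 1860 and 2010 CPM in nLRC. Itgb4, an integrin chain of hemidesmosomes, and Trp63, a transcription factor required for stratified epithelia, overlapped between the classes.

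**Figure D3:**
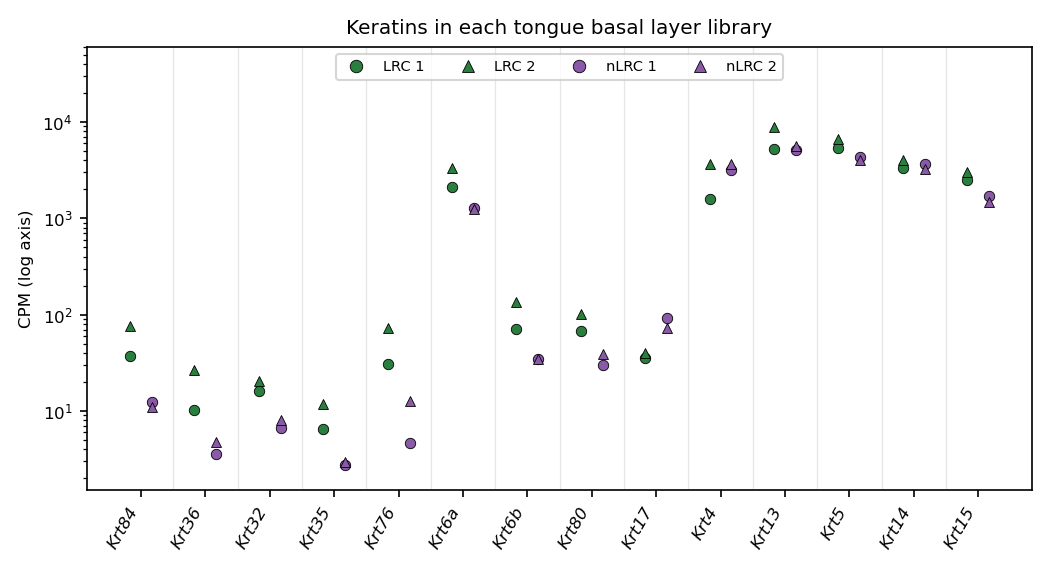
CPM on a log axis of 14 keratins in each tongue basal layer library, with LRC (green) left of nLRC (purple), circles for library 1 and triangles for library 2. Krt84 stands at 36.9 and 75.4 CPM in LRC and at 12.3 and 11.1 CPM in nLRC, Krt17 is lower in LRC, and Krt4, Krt13 and Krt14 overlap.

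Igfbp3, which binds insulin-like growth factors outside the cell, had 87.7 and 81.5 CPM in LRC and 28.5 and 22.3 CPM in nLRC, well apart (log2 fold change 1.74 ± 0.27, adjusted p = 0.125). Igfbp5 had 193 and 199 CPM in LRC and 97.8 and 93.1 CPM in nLRC (1.04 ± 0.28). Irs1, a docking protein of the insulin and IGF receptors, had 4.70 and 2.23 CPM in LRC and 9.63 and 9.09 CPM in nLRC (-1.42 ± 0.38). Of 12 IGF axis genes tested 0 passed.

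Of 6 BMP and TGF-beta ligands tested 4 had positive and 2 negative log2 fold changes. Of 13 effectors and targets 3 had positive and 10 negative ones, with 6 of the 13 overlapping between the classes. Among all genes tested 9184 of 14923 overlapped. Bmp4, a ligand, had 20.6 and 18.9 CPM in LRC and 9.63 and 10.9 CPM in nLRC (0.94 ± 0.23), and Bmp7 69.0 and 75.6 CPM in LRC and 49.1 and 49.1 CPM in nLRC (0.56 ± 0.18). Id1, Id2 and Id3, inhibitors of basic helix-loop-helix factors and direct BMP targets, had log2 fold changes of -1.04 ± 0.22, -1.17 ± 0.24 and -1.07 ± 0.27. Id2, for instance, had 9.54 and 12.8 CPM in LRC and 26.8 and 23.5 CPM in nLRC, and the 3 Id genes did not overlap between the classes. Bmpr1b, a type I BMP receptor, had 1 and 0 reads in LRC and 20 and 9 in nLRC, a ratio of nLRC to LRC of 29.1 with a counting interval of 4.83 to 1190 (16.8 without nLRC library 1). Nog, the BMP antagonist noggin, had 1 and 0 reads in LRC and 5 and 8 in nLRC. Of 32 BMP and TGF-beta pathway genes tested 0 passed, and the median was -0.07.

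Interferon-response genes had lower readings in LRC. Of 47 listed 33 were tested, 0 passed, 28 were negative and 15 lay below without overlap (45.5% of the 33 against 20.2% of all genes), with a median of -0.35. The median of all genes was -0.0086. Most interferon-response genes are weakly expressed here. On TPM 24 of the 33 passed the filter, with a median of -0.27, against -0.10 for all genes. Oas1a, which makes oligoadenylates on sensing viral RNA, had 0 and 0 reads in LRC and 6 and 52 in nLRC, at least 9.15-fold lower in LRC, with LRC set at a floor of 3 reads per library. This bound rests on nLRC library 2, and without it was 2.16-fold. Gbp7, a guanylate-binding protein, had 1 and 1 reads in LRC and 7 and 24 in nLRC, a ratio of nLRC to LRC of 15.6 with a counting interval of 3.96 to 134 (7.60 without nLRC library 2). Gbp3 had 1 and 2 reads in LRC and 10 and 10 in nLRC. Oasl2 had 3 and 12 reads in LRC and 24 and 36 in nLRC. Nlrc5, the activator of MHC class I genes, had 2.82 and 2.23 CPM in LRC and 4.10 and 12.3 CPM in nLRC, and B2m, the MHC class I light chain, 16.1 and 22.4 CPM in LRC and 29.1 and 45.9 CPM in nLRC. nLRC library 2 was the highest for Oas1a, Gbp7, Oasl2, Nlrc5 and B2m, and without it the list median was -0.29.

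Promoters of the 3 interferon genes with the smallest p are shown (RefSeq, GRCm38.p6), because these genes had low readings together. Capitals mark matches to the interferon-stimulated response element, spelled GAAA, then NN, then GAAA, on either strand, with overlapping matches merged. Gbp7 is chr3:142530086-142530385 (plus strand), Oas1a chr5:120907476-120907775 (minus strand), and Gbp3, for the first of its 2 starts, chr3:142559794-142560093 (plus strand).
Gbp7: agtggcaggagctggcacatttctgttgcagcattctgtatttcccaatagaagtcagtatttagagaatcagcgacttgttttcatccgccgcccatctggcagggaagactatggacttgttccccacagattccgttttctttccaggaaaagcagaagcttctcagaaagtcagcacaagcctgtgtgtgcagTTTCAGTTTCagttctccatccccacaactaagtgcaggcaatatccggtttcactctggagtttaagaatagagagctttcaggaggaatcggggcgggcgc
Oas1a: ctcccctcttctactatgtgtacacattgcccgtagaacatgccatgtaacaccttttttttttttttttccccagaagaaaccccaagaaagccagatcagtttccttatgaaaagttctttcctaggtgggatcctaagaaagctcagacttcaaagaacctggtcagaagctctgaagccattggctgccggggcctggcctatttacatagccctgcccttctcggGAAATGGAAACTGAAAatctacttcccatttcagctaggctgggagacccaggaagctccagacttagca
Gbp3: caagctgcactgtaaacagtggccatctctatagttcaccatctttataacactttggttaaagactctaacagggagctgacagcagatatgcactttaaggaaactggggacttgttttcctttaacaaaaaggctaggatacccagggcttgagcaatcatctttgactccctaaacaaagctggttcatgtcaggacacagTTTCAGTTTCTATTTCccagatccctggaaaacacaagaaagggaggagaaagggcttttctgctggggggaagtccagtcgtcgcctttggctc
Gbp7 held 1 match, and Oas1a and Gbp3 held 2 overlapping matches each. The element occurred in 3.44% of all 32851 promoters. Counted by gene, with a match at any start enough, it occurred in 18 of 34 interferon-response genes that the table holds (52.9%). These shares describe the list and not a difference between the label classes.

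Mitosis genes mostly overlapped between the label classes. Of 30 mitosis genes 0 passed, 28 overlapped and the median was -0.11 on counts, which became 0.13 without LRC library 2. On TPM the median of these genes was -0.31, against -0.10 for all genes. Among all genes tested 9184 of 14923 overlapped. Mki67, a marker of cycling cells, had 209 and 76.4 CPM in LRC and 227 and 203 CPM in nLRC, so only LRC library 2 was low. Of 30 DNA replication genes 0 passed, with a median of 0.09 on counts and -0.09 on TPM. The medians of all genes were -0.0086 on counts and -0.10 on TPM. Without overlap, 11 of the 30 lay above and 5 below, where the shares over all genes were 18.2% and 20.2%. Of 7 CDK inhibitors 0 passed, and Cdkn2b (p15) had 5.64 and 8.69 CPM in LRC and 3.18 and 4.18 CPM in nLRC (0.95 ± 0.42). In mouse skin, Dlx1 is known to mark the slow-cycling and Slc1a3 the fast-cycling stem cells. Dlx1 had 3 and 3 reads in LRC and 4 and 3 in nLRC, which is too few to compare. Slc1a3 had 20.9 and 11.0 CPM in LRC and 26.3 and 23.4 CPM in nLRC (-0.64 ± 0.32).

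Among the 12 genes with the smallest p lower in LRC at a mean log2 CPM of at least 3, besides Lgr6 and Apcdd1, were factors, matrix and signalling genes. Parp8, of the ADP-ribosyltransferase family, had 3.83 and 3.23 CPM in LRC and 16.7 and 13.7 CPM in nLRC (-2.10 ± 0.26, adjusted p = 0.0786). Sox9, a progenitor transcription factor in many epithelia, had 0.795 and 1.57 CPM in LRC and 4.94 and 6.28 CPM in nLRC (-2.26 ± 0.36). Ehf, an epithelial ETS factor, had 67.9 and 82.8 CPM in LRC and 174 and 221 CPM in nLRC (-1.39 ± 0.22). Both LRC libraries were below both nLRC libraries in each of these genes because the rule that chose them required no overlap. Casp1, the protease that activates interleukin-1 beta, had 4.62 and 4.22 CPM in LRC and 14.1 and 19.0 CPM in nLRC (-1.90 ± 0.27). The rest were Marcks (-1.94 ± 0.26), a protein kinase C substrate, Npnt (-1.64 ± 0.23), an integrin ligand of basement membranes, Adgra3 (-1.95 ± 0.28), an adhesion receptor, Amotl2 (-1.14 ± 0.18), a junction scaffold and YAP target, Flrt3 (-2.60 ± 0.43) and Cbx6 (-1.36 ± 0.23), a Polycomb protein. Their adjusted p ranged from 0.0786 to 0.145. Eya2, a transcriptional coactivator and phosphatase, had 8.24 and 8.11 CPM in LRC and 46.2 and 53.9 CPM in nLRC (-2.61 ± 0.45, adjusted p = 0.145). Nrp2, a semaphorin and VEGF co-receptor, and Alcam, an adhesion protein, had log2 fold changes of -2.06 ± 0.42 and -3.28 ± 0.88. Both were chosen after their values were seen.

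On the higher side the genes given here by the same rule, with Igfbp3 and Krt84 already described, had adjusted p of 0.125 to 0.254. Chit1, a chitinase, had 239 and 268 CPM in LRC and 106 and 126 CPM in nLRC (1.13 ± 0.20). Cxcl14, a chemokine made by squamous epithelia, had 15.6 and 10.7 CPM in LRC and 4.94 and 2.16 CPM in nLRC (1.90 ± 0.40). Krt80, a keratin of differentiating epithelium, had 66.9 and 101 CPM in LRC and 29.7 and 38.7 CPM in nLRC (1.29 ± 0.25). LRC lay above nLRC in each library for these genes, which the rule required. The others were Rab11fip4 (1.10 ± 0.19), an effector of recycling endosomes, Iffo2 (1.05 ± 0.21), Otx1 (1.26 ± 0.25), a homeobox factor, Ndufa4l2 (1.57 ± 0.32), known as a target of hypoxia signalling, Nat8l (1.82 ± 0.38), which makes N-acetylaspartate, and Camkk1, a kinase activated by calmodulin.

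**Figure D4:**
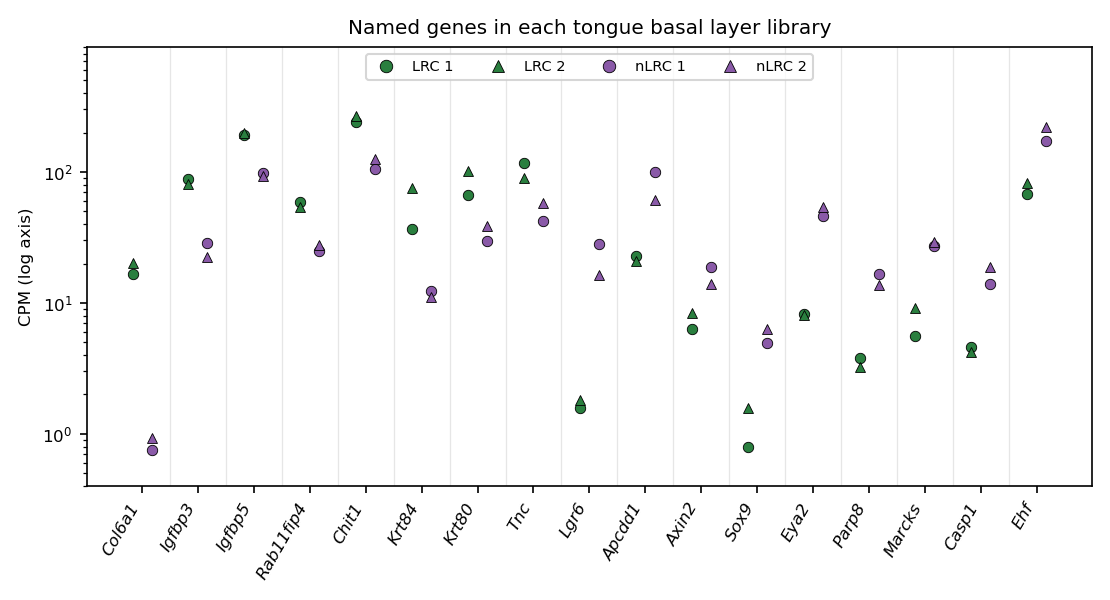
CPM on a log axis of 17 named genes in each tongue basal layer library, LRC (green) left of nLRC (purple), with circles for library 1 and triangles for library 2. In each gene shown the 2 LRC libraries do not overlap the 2 nLRC libraries, as for Igfbp3 at 87.7 and 81.5 CPM in LRC and 28.5 and 22.3 CPM in nLRC, and among them Col6a1 passed the test. For genes named by the smallest p, no overlap was part of the rule that chose them and is no separate result.

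Other cell type lists held few reads for most of their genes, apart from a few that were well expressed. The pericyte and smooth muscle list summed to 147 and 167 CPM in LRC and 131 and 135 CPM in nLRC, nearly all from Cspg4 and Notch3, while Rgs5 had 0 reads in each library. The Schwann cell list summed to 130 and 106 CPM in LRC and 108 and 111 CPM in nLRC, mostly from Mbp. The Schwann cell sums overlapped between the classes, and the pericyte and smooth muscle sums did not. Pecam1, an endothelial adhesion protein, had 26 and 58 reads in LRC and 386 and 345 in nLRC (-3.11 ± 0.59, adjusted p = 0.202). The other endothelial markers stayed low, Vwf with 10 and 16 reads in LRC and 26 and 17 in nLRC and Kdr with 2 and 0 in LRC and 2 and 1 in nLRC. The 9 endothelial markers summed to 3.83 and 8.77 CPM in LRC and 38.4 and 28.7 CPM in nLRC, most of it Pecam1. TPM, which rest on exons, gave no check of this. Of the 4 endothelial markers tested on counts, Pecam1 among them, 0 reached a TPM of 1 in at least 2 of the 8 oral libraries. The part of intron reads in the Pecam1 counts was not tested. Of 12 immune markers 5 had no read, and the sum was 7.59 and 13.4 CPM in LRC and 6.78 and 5.27 CPM in nLRC. The MHC class II gene H2-Ab1 had 71 and 113 reads in LRC and 36 and 43 in nLRC, and Cd74, the class II chaperone, 7 and 30 in LRC and 5 and 1 in nLRC. Sox2, which marks taste progenitors and also tongue keratinocytes, had 44.1 and 56.1 CPM in LRC and 40.4 and 41.0 CPM in nLRC, while Shh and Atoh1 had 0 reads in each library. The part of such cells in the gene differences was not tested.

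The LRC effect in tongue was set against that in palate, the other oral tissue. No gene passed the test of the difference (0 of 14923, 0.00%) by edgeR, with 854 at an unadjusted p under 0.05 (5.72%), while DESeq2 called 32 and limma on TPM 0. Col6a1 had 1.28 and 2.54 CPM in palate LRC and 1.24 and 1.29 CPM in palate nLRC, and the log2 fold change was 4.42 ± 0.42 in tongue against 0.58 ± 0.42 in palate. Adgra3, with the smallest p of the difference at a mean log2 CPM of at least 3, had -1.95 ± 0.28 in tongue against 0.52 ± 0.25 in palate (difference -2.47 ± 0.38, adjusted p = 0.550). Eya2 had -2.61 ± 0.45 in tongue and 0.90 ± 0.42 in palate. Lgr6 was lower in LRC of both tissues, with -3.69 ± 0.44 in tongue and -0.87 ± 0.36 in palate. Palate nLRC library 2 stood apart, with 7.18% of reads in introns in its median gene. Without palate nLRC library 1 the difference passed for 488 genes, and with the replicate number as a block for 16. Within tongue, 39 genes passed without palate nLRC library 1 and 45 without palate nLRC library 2.

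The difference between the tongue and tail skin effects was tested in 14 basal layer libraries. It passed for 184 of 16614 genes (1.11%), 69 with a positive and 115 with a negative difference. In the same fit 161 of these genes passed within tail and 0 within tongue, where 96 had an unadjusted p under 0.05. The effects had opposite signs in 155 genes, with 102 lower in tongue LRC and higher in tail LRC and 53 the other way round. Genes picked for a large difference tend to have opposite signs, so this tally follows in part from the selection. Doxycycline was given for 10 days in tongue and for 2 weeks in tail, and tissue and this duration cannot be told apart. In tail the median gene had 26.5, 41.8 and 36.4% of reads in introns in LRC libraries 1 to 3. The tail nLRC libraries had 16.0, 22.9 and 29.9%. What part intron reads had in the differences was not tested.

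Tnc, the matrix protein tenascin-C, had the smallest p, with a log2 fold change of 1.06 in tongue and -2.61 in tail (difference 3.67 ± 0.29, adjusted p = 0.000239). In tongue it had 117 and 90.0 CPM in LRC and 42.1 and 57.9 CPM in nLRC. Igfbp5 was 1.05 in tongue and -4.26 in tail (difference 5.31 ± 0.60, adjusted p = 0.00131). Krt84 and Krt36 were 2.27 and 2.13 in tongue and -3.39 and -3.15 in tail. These 4 genes were thus higher in LRC of tongue and lower in LRC of tail.

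The reverse order held for Sox9, at -2.25 in tongue and 2.52 in tail (difference -4.77 ± 0.47, adjusted p = 0.000932), and for Eya2, at -2.61 in tongue and 2.60 in tail. Apcdd1 was -1.88 in tongue and 2.49 in tail. Shroom3, an actin regulator of epithelial shape, was -1.39 in tongue and 2.45 in tail, and Nebl, a nebulin-family actin-binding protein, -0.90 in tongue and 3.25 in tail. Lrig1, a negative regulator of EGF receptors and a stem cell marker, was -0.24 in tongue and 2.94 in tail. Lgr6 had the same sign in both, -3.68 in tongue and -0.77 in tail (difference -2.92 ± 0.57, adjusted p = 0.0284). The number of genes was 62 to 116 when a tongue library was left out, and 593 with the replicate number as a block.

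**Figure D5:**
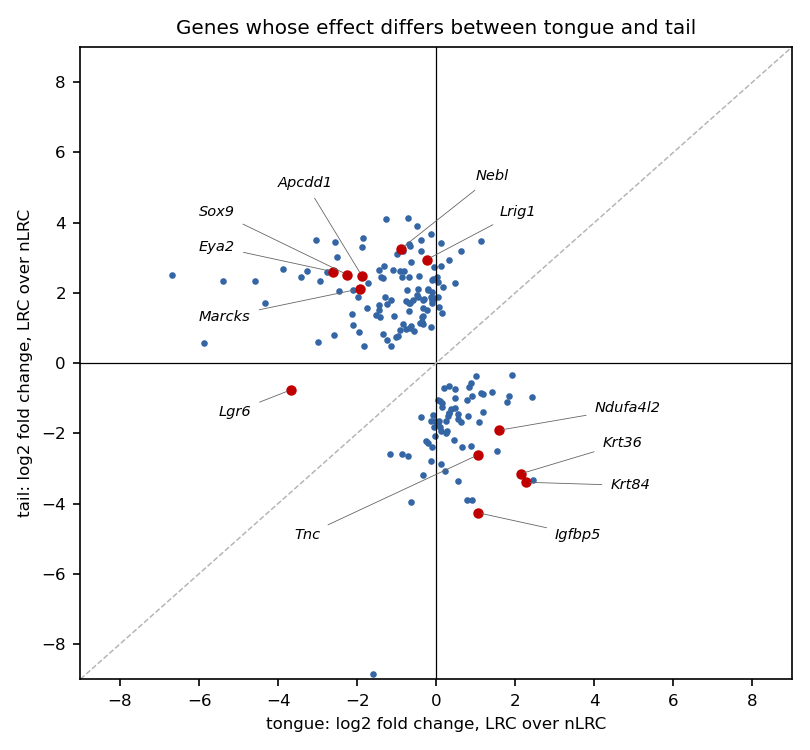
Log2 fold change of LRC over nLRC in tongue (horizontal axis) against that in tail skin (vertical axis) for the 184 genes whose effect differed between the tissues, 1 point a gene, with named genes in red and equality as a dashed line. Points gather in the upper left (102 genes) and lower right (53 genes), which selection on the difference itself favours, and Lgr6 lies in the lower left.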

How the data were processed

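RNA of sorted tongue, palate and tail basal layer cells was sequenced from total RNA with a SMARTer Pico kit (v2, stranded) after overnight trypsin digestion and sorting into Trizol, per the labels' protocols. For each library the authors deposited, per the file headers, the count of reads on each gene and its TPM and RPKM. Judged from the values, the authors' counts include intron reads, whereas TPM and RPKM were made by the authors from exon reads. RPKM served only for intron shares. The genome build is mm10, per the submitters' processing notes. The aligner is not given in the sources used here, nor are the counter, the annotation or strand use. Overlapping, antisense and near-identical genes (Krt6a and Krt6b, Gbp, Oas and Sprr families) are therefore uncertain. Positions come from GENCODE M21 and promoters from RefSeq GRCm38.p6.

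Counts were tested with the quasi-likelihood test of edgeR 4.0.16 in R 4.3.3, with TMM scaling, filterByExpr (minimum count 10, minimum total 15), group means and Benjamini-Hochberg adjustment over all genes, calling an adjusted p under 0.05. The tongue contrast was fitted on the 8 oral libraries and the difference from tail on 14. Each SE was taken as the absolute log2 fold change divided by the root of F, and CPM are TMM-scaled. Genes with 1 to 10 reads have a 95% interval of the count ratio that covers counting error only. Members and lists were chosen with earlier results of these data known. Genes were named as those past the test, the 12 smallest p in each direction (mean log2 CPM of at least 3, no overlap between classes, no predicted, mitochondrial, ribosomal or rRNA-like features), up to 4 per list and members needed to give a pathway by role, and the 5 smallest p of each tissue difference. The text prints a part of them, and some are not reported here. The tests were checked on simulated counts.

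Alternatives were median-of-ratios scaling, no filter, DESeq2 1.42.0, limma 3.58.1 on log2(TPM + 1) and log2(TPM + 0.1) (TPM of at least 1), other sets of libraries, no rRNA-like features, the replicate number as a block and each tongue library left out. Fits without palate LRC 1, LRC 2 or nLRC 1, and read ratios without 1 nLRC library, were chosen after seeing the data. Library pairs of a class differed by more than sampling noise (chi-square over its degrees of freedom, 37.7 for LRC and 28.0 for nLRC). Libraries 1 and 2 of a tongue class held different animals, as their Y-linked reads show, but how many animals each holds is not stated. The p-values cover the spread between these libraries. The genes Gphn, Filip1l, Peak1 and Zc3h7a, to which rRNA-like reads are assigned, held 14.3 and 14.7% of reads in LRC and 13.3 and 11.2% in nLRC. On TPM the median log2 fold change of all genes was -0.10, against -0.0086 on counts.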

Additional observations from a re-analysis of the deposited data

Results flagged for a closer look

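The test of the difference between the tongue and tail skin effects of LRC over nLRC passed for 184 genes, which flagged the named genes among them for a closer look. Values are the log2 fold change in tongue minus that in tail, in the fit of 14 basal layer libraries. Negative differences were found for Bmpr1b (-6.90), Alcam (-5.90), Eya2 (-5.21), Sox9 (-4.77), Apcdd1 (-4.37), Nebl (-4.15), Marcks (-4.05), Shroom3 (-3.85), Flrt3 (-3.38), Lrig1 (-3.19), Parp8 (-3.17), Lgr6 (-2.92), Adgra3 (-2.82), Fbln1 (-2.12) and Fzd7 (-1.80). Positive differences were found for Krt84 (5.66), Igfbp5 (5.31), Krt36 (5.29), Tnc (3.67), Ndufa4l2 (3.50), Hoxc13 (3.05), Nat8l (2.76), Cxcl14 (2.25), Thy1 (1.82) and Id2 (1.44). Bmpr1b rests on 1 and 0 reads in tongue LRC and 20 and 9 in tongue nLRC. Within tongue none of these genes passed the test, while 161 of the 184 passed within tail. For Fzd7 both effects were positive (0.47 in tongue and 2.27 in tail), and for Id2 both were negative (-1.16 in tongue and -2.60 in tail). The duration of doxycycline differed between the tissues and cannot be told apart from the tissue. Tail LRC libraries also had higher intron shares than the same-numbered tail nLRC libraries, and the part of this was not tested.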

How the results depend on the processing

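The 86 followed genes with an absolute log2 fold change of at least 0.5 kept their direction under each alternative that gave them a value. Many were named for a small p or no overlap in these same libraries. That choice and the cut at 0.5 themselves favour a kept direction. For tongue LRC against nLRC, 1 gene passed with median-of-ratios scaling, without rRNA-like features, without palate LRC 1 or LRC 2, and on log2(TPM + 1), Col6a1 each time; on log2(TPM + 0.1) the 1 gene was Sprr2a1, a cornified envelope gene with 0 and 0 CPM in LRC and 2.01 and 2.31 CPM in nLRC. The count was 6 with the 4 tongue libraries or 20 basal libraries, 0 with 14 basal libraries, 39 without palate nLRC 1, 45 without palate nLRC 2, 88 by DESeq2 and 236 without the low-count filter, and the cause was not tested. Leaving out 1 tongue library gave 0 genes each time (range 0 to 0, 359 to 808 at an unadjusted p under 0.05), where the lone library was assumed to vary like the other groups and the low-count filter passed more genes.

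The replicate numbers are not stated to pair libraries, and there are 2 pairs. The deviations of same-numbered libraries correlated at 0.0471 in tongue and 0.2831 in palate over all genes, and at 0.1341 in tongue and 0.3387 in palate at a mean log2 CPM of at least 3. The number 1 tongue libraries of both classes also share reads of Xist and of Y-linked genes. With the replicate block 29 genes passed in tongue, 16 for the difference from palate and 593 for the difference from tail. The difference from palate gave 32 genes by DESeq2, 237 without the filter and 488 without palate nLRC 1. The difference from tail gave 487 genes by DESeq2, 930 without the filter, 288 without palate nLRC 2, and 62 to 116 when a tongue library was left out.

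Genes near 0 changed sign. On log2(TPM + 0.1) and log2(TPM + 1) Ctnnb1 became -0.13 in both and Krt14 -0.084. Leaving out each tongue library gave -0.15 to 0.31 for Lef1, -0.072 to 0.12 for Ctnnb1, -0.056 to 0.25 for Krt14, -0.056 to 0.052 for Itgb4, -0.10 to 0.17 for Trp63, -1.11 to 0.11 for Krt4, -0.023 to 0.72 for Krt13 and -0.51 to 0.095 for Dlx1, and without palate nLRC 1 Itgb4 was 0.0030. Of 31 lists 22 moved by more than the difference between libraries under at least 1 alternative. Col6a1 and Lgr6 rest on over 200 reads in each library of 1 class, whereas the interferon, Notum, Bmpr1b and Nog values rest on few reads, and their size is uncertain at this depth.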

Other observations

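Of 19 clock genes tested in tongue 0 passed, 7 had both LRC libraries above both nLRC libraries, 3 below and 9 overlapped, with a median log2 fold change of 0.28. Over all genes tested 18.2% lay above and 20.2% below in this way, and the median was -0.0086. Per1, a repressor of the clock, had 78.1 and 81.6 CPM in LRC and 41.8 and 55.3 CPM in nLRC (log2 fold change 0.72 ± 0.21, adjusted p = 0.573). Nr1d1 and Dbp, both clock-controlled, had 0.56 ± 0.21 and 0.67 ± 0.27. Arntl, the activator of the clock, had the opposite order, at 17.1 and 11.8 CPM in LRC and 24.9 and 22.1 CPM in nLRC. The time of collection is not given in the sources used here.

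Of 23 glycolysis and hypoxia genes 0 passed, 18 had positive log2 fold changes and 5 negative, and the median was 0.25, against -0.0086 for all genes. Without overlap, 8 lay above and 2 below, where the shares over all genes were 18.2% and 20.2%. Bnip3, a mitochondrial protein induced by hypoxia, had 27.9 and 28.2 CPM in LRC and 13.0 and 14.5 CPM in nLRC, while Hk2, a hexokinase, had 14.1 and 25.8 CPM in LRC and 41.0 and 41.8 CPM in nLRC. Fgfr1, a receptor of fibroblast growth factors, and its feedback inhibitor Spry1 had log2 fold changes of 0.55 ± 0.22 and 0.70 ± 0.22, and of 23 EGF and FGF axis genes tested 0 passed. In the Notch and Hedgehog lists 0 of 15 and 0 of 11 passed, with medians of -0.11 and -0.04.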
